A study of Mus musculus with 50 samples.

Results

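Ptprc encodes CD45, the phosphatase whose absence from the cell surface defined the sort of these cells, and 6 further genes of white blood cells, Laptm5, Lcp1, Coro1a, Rac2, Vav1 and Cd53, were described beside it. All 7 genes had a row in the table of 11879 genes. They were picked because earlier work on the same values showed Ptprc listed at 0 while leukocyte genes were present, so their levels are given as a description, with no test. Values came from 50 single mouse cells of 1 group, induced hemogenic endothelial cells (iHECs) grown from C57BL/6 embryonic stem cells. The stem cells carried a Runx1 cassette at Rosa26 under a promoter that doxycycline switches on (iRunx1), so every cell of the data shared the cassette and the doxycycline, and no cells without it were available for comparison here. The cells were sorted as CD31+CD41lowCD45-c-kit+CD201high. The labels name no clone, culture or animal, and the 50 cells therefore count as 1 sample.

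Hemogenic endothelial cells line vessels and give rise to blood cells through a change called endothelial-to-hematopoietic transition, in which Runx1 acts early. CD45 is carried by nearly all white blood cells and removes phosphate from kinases of the Src family, and it is commonly used to tell blood cells from the endothelium that formed them. The other 6 genes serve the lysosome, the actin skeleton and surface membrane of leukocytes. Laptm5 is a lysosomal membrane protein that lowers receptor signalling. Lcp1 (L-plastin) bundles actin and Coro1a (coronin 1A) binds it. Rac2 is a small GTPase of blood cells, Vav1 is an exchange factor that loads Rac proteins with GTP, and Cd53 is a tetraspanin of leukocyte membranes.

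Values are in TPM, a share of each library's transcripts that is scaled by transcript length, so levels of different genes may be set side by side. A gene was counted in a cell at TPM above 1. The sequencing depth behind each value is unknown from TPM, and the number of genes above TPM 1 per cell stands in for it. That number had a median of 6224 and ran from 2400 to 8615. The lowest cell, cell 4-6, stood apart, and several values that rest on it are given with and without it. Cells are named by the 2 numbers of their title. By the first of these, 1, 2, 3 or 4, the cells fall into sets of 11, 14, 13 and 12, and the labels do not say what it stands for. The label of the cells was checked against 8 endothelial markers, Pecam1, Cdh5, Esam, Tek, Kdr, Tie1, Emcn and Egfl7, and each of the 8 was above TPM 1 in at least 45 cells.

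The upstream sequence of 4 members is shown here because they span the whole range of levels, from Ptprc at 0 to Lcp1 in nearly every cell. Each stretch is the 250 bases before a RefSeq start site on GRCm38.p6, 5′ to 3′ on the strand of the gene, and capitals mark the letters GGAAGT or their reverse complement ACTTCC, the core bound by ETS factors such as Fli1, Erg and Spi1.
Ptprc, chr1:138175306-138175555, minus strand: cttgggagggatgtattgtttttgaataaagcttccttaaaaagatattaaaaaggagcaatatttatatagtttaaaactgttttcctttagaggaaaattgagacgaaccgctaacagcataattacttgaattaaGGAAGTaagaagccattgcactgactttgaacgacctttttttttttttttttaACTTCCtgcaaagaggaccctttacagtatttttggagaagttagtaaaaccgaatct
Lcp1, chr14:75130873-75131122, plus strand: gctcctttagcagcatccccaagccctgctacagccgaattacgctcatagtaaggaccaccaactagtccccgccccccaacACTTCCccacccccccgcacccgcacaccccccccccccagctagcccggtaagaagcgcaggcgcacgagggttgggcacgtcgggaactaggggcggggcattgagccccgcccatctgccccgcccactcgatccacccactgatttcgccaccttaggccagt
Coro1a, chr7:126704817-126705066, minus strand: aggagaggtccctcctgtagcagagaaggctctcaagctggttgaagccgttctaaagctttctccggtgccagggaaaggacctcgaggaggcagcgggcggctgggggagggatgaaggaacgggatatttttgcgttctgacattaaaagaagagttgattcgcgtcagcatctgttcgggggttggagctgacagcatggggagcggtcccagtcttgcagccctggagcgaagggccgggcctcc
Vav1, chr17:57278850-57279099, plus strand: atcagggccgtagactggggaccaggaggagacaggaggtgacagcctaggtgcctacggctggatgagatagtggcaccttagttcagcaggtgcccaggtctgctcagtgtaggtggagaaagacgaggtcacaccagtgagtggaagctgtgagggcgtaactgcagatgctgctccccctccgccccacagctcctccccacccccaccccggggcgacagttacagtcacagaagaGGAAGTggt
RefSeq start windows were found for 6 of the 7 genes, in 9 windows, and Rac2 had no entry. The windows hold 250 bases before and 50 bases after a start site. On either strand GGAAGT was present in a window of 5 of the 6 genes, Ptprc, Cd53, Laptm5, Lcp1 and Vav1. By window these were 6 of 9, and it was found in 23.8% of all 32851 windows of that length. The Ptprc windows overlap and share an ACTTCC, at -58 from start site 138175305 and -237 from start site 138175126. That site was therefore counted in both. The 2 windows of Coro1a held no such letters. The longer form GAGGAAGT, which contains the core and resembles the site of Spi1, was found near the start sites of Vav1, where its first base lies at position -11, and of Cd53, on the other strand with its leftmost base at position 7 after the start. It occurred in 3.2% of all windows. The RUNX core TGTGGT was present only in the Cd53 window, with its first base at position -250, against 16.8% of all windows. The windows with the ETS core thus included those of a gene listed at 0 and of a gene in nearly every cell, and these matches describe letters only.

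Ptprc (GRCm38 chromosome 1, 138062861 to 138175708, minus strand) was listed at 0 in 50 of 50 cells. By the rule of 3 counts, 0 of 50 leaves room for up to 6% of cells with a listed value, and the exact 95% interval reaches 7.11%. These limits cover counting error over cells only, are set by the zeros for which Ptprc was chosen, and do not bound the share of cells that express it. No cell held even a value between 0 and TPM 1. Rows listed at 0 in every cell made up 4.34% of the table (515 rows), and whether such a 0 reflects no transcript or a failed estimate was not tested.

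Laptm5 and Lcp1 were present in nearly every cell at high levels. Laptm5, which lies on chromosome 4 (130913125 to 130936141), exceeded TPM 1 in 48/50 cells (96%, exact 95% interval 86.3% to 99.5%), with a lowest value of 0.63, a median of 194 and a highest value of 1230 TPM. Its mean TPM exceeded that of 93.7% of all rows. Lcp1, which lies on chromosome 14 (75131101 to 75230842), exceeded that level in 49/50 cells (98%, 89.4% to 99.9%), and its lowest, median and highest values were 0.47, 199.5 and 912 TPM. Its mean was above that of 94.0% of rows. Both genes were listed above 0 in all 50 cells, and 47 cells held the pair above TPM 1. The 2 cells in which Laptm5 stayed at or below TPM 1, cells 2-16 and 4-13, had 231 and 86.7 TPM of Lcp1. The single cell with Lcp1 at or below TPM 1 was cell 4-6, which had 396 TPM of Laptm5, and without that cell Lcp1 was above TPM 1 in 49/49 cells. Across cells the levels of Laptm5 and Lcp1 had a Spearman rho of 0.07 over 50 cells. The rho of Laptm5 with the number of genes above TPM 1 per cell was 0.41, and that of Lcp1 was 0.14. These points share library yield, so a rho over cells is a description only.

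**Figure D1:**
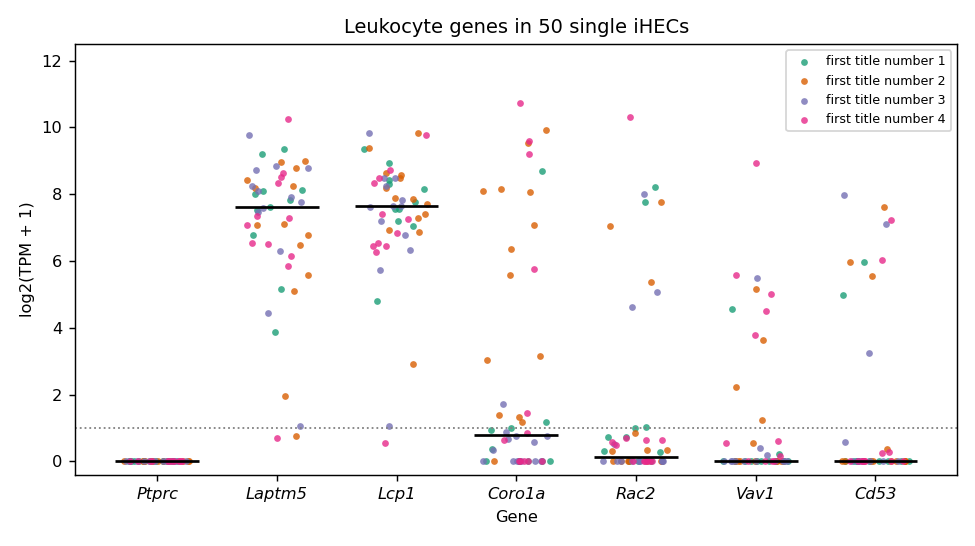
Level of the 7 leukocyte genes in 50 single iHECs, as log2(TPM + 1) on the vertical axis, with a point per cell coloured by first title number, a bar at the median and a dotted line at TPM 1. Ptprc sits at 0 throughout, Laptm5 and Lcp1 lie high in nearly all cells at medians of 194 and 199.5 TPM, and the other 4 genes split into cells near 0 and a smaller set of cells with high values.

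Coro1a, Rac2, Vav1 and Cd53 were each above TPM 1 in fewer cells, from 10 to 21 of the 50, and their values there ran from near TPM 1 to over 100 TPM, with a lowest value of 8.50 TPM for Cd53. Coro1a, on the minus strand of chromosome 7 (126699773 to 126707787), exceeded TPM 1 in 21/50 cells (42%, 28.2% to 56.8%). It was listed at 0 in 18 cells and lay above 0 and up to TPM 1 in 11. Of the 21 cells above TPM 1, 8 were at or below TPM 10 and 13 were above it, with no value between 8.00 and 47 TPM. The highest cell, 4-3, reached 1690 TPM, and 10 cells were above 100 TPM. The median of the 21 cells was 81.6 TPM. Over the 5892 genes above TPM 1 in 10 to 40 cells, the corresponding median was 24.8 TPM. Coro1a shares 26 of its 2783 exonic bases with Bola2 on the opposite strand, and no strand setting was named, so reads in those bases cannot be told apart. Bola2 was above TPM 1 in all 50 cells and had a rho of 0.15 with Coro1a.

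Rac2, on the minus strand of chromosome 15 (78559167 to 78572783), exceeded TPM 1 in 10/50 cells (20%, 10.0% to 33.7%). The 10 values were 1281 TPM in cell 4-6, 297 in cell 1-1, 259 in cell 3-13, 219 in cell 2-2, 215 in cell 1-7, 130 in cell 2-7, 40.8 in cell 2-18, 32.4 in cell 3-2, 23.4 in cell 3-3 and 1.05 in cell 1-8. Cell 4-6 therefore carried 51.1% of all Rac2 TPM in the data. Without it Rac2 was above TPM 1 in 9/49 cells and the highest value was 297 TPM. Low values were frequent for this gene, with 15 cells above 0 and up to TPM 1, while a gene above TPM 1 in 10 to 40 cells had a median of 4 such cells. Only 0.577% of those genes had as many as Rac2, and 2.85% had as many as the 11 of Coro1a.

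Vav1, on chromosome 17 (57279100 to 57328031), exceeded TPM 1 in 11/50 cells (22%, 11.5% to 36%). Cell 4-2 held 493 TPM, or 68.0% of all Vav1 TPM, and the next highest, cell 4-7, held 46.8 TPM. The median over the 11 cells was 22.9 TPM. This median was the lowest of the 4 genes. Cd53, on the minus strand of chromosome 3 (106759921 to 106790149), exceeded TPM 1 in 10/50 cells (20%, 10.0% to 33.7%), at values from 8.50 TPM in cell 3-2 to 250 TPM in cell 3-4. Of the other cells, 36 were listed at 0 and 4 lay above 0 and up to 0.49 TPM, which left no value between 0.49 and 8.50 TPM. By share of cells the order was Lcp1, Laptm5, Coro1a, Vav1, and then Rac2 and Cd53 with equal shares, which were 1 cell apart from Vav1. With 1 sample, no difference between neighbours in that order was tested.

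Co-occurrence was then counted cell by cell. All 50 cells had at least 1 of the 6 genes above TPM 1 (100%, 92.9% to 100%), and 35 cells had at least 3 (70%, 55.4% to 82.1%). Each of the 50 cells had Laptm5 or Lcp1 above TPM 1, so these genes alone fixed the first count and raised the second. The median row of the table was above TPM 1 in 52% of cells, and no such count was made for other sets of 6 genes. Exactly 3 genes were present in 24 cells, 4 in 7 cells and 5 in 4 cells, and no cell had all 6. The 4 cells with 5 genes were 2-6, 2-17, 2-18 and 4-2. Cell 2-17 had the highest mean log2(TPM + 1) over the 6 genes, 6.65, with Laptm5 at 438, Lcp1 at 911, Coro1a at 285, Vav1 at 34.5 and Cd53 at 194 TPM, and Rac2 at 0.27 TPM. Ptprc was listed at 0 in that cell as in all others. Cell 4-2 held 765 TPM of Coro1a, 493 TPM of Vav1 and 63.9 TPM of Cd53, and it was listed at 0 for Rac2.

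Of Coro1a, Rac2, Vav1 and Cd53 alone, 37 cells had at least 1 (74%, 59.7% to 85.4%) and 13 cells had none. A single gene of the 4 was present in 26 cells, 2 genes in 7 cells and 3 genes in 4 cells. Coro1a was the only gene of the 4 in 11 cells, Rac2 in 7, and Vav1 and Cd53 in 4 each. Coro1a and Vav1 shared 7 cells, which were 33.3% of the Coro1a cells and 63.6% of the Vav1 cells, and their rho was 0.35 over all cells and 0.35 on ranks centred within the first title number. Coro1a and Cd53 shared 5 cells, 23.8% of the former and 50% of the latter. Over all 50 cells, Coro1a was above TPM 1 in 42%, Vav1 in 22% and Cd53 in 20%, and no overlap was tested. Rac2 shared 2 cells with Coro1a, or 20% of the Rac2 cells, with a rho of -0.22, while 29 of all 50 cells lacked Coro1a above TPM 1. Without cell 4-6, 7 of the 9 Rac2 cells lacked Coro1a, as did 28 of all 49 cells. Rac2 is again counted over all cells in what follows. Rac2 shared 1 cell each with Vav1 and with Cd53. The cell shared by Vav1, the exchange factor, and Rac2, a GTPase it acts on, was 2-18, at 11.6 and 40.8 TPM. Such low counts carry little information, since Vav1 was above TPM 1 in only 11 of all 50 cells.

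**Figure D2:**
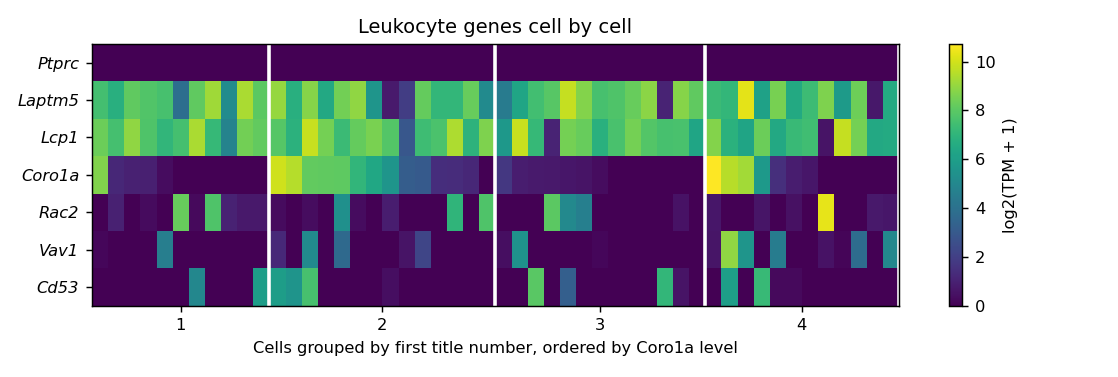
Levels of the 7 genes in each of the 50 cells, with a column per cell, colour giving log2(TPM + 1), and cells grouped by first title number and ordered by Coro1a within it. Laptm5 and Lcp1 form nearly unbroken bands, Coro1a is above TPM 1 in 13 of the 14 cells of number 2 and above TPM 10 in 8 of them, and 2 cells are above TPM 1 for both Coro1a and Rac2.

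Coro1a was next set out by the first number of the title. Among the 14 cells of number 2, it ran from 0 to 974 TPM with a median of 64.3 and was above TPM 1 in 13 cells (92.9%, exact 95% interval 66.1% to 99.8%). Among the 13 cells of number 3, it ran from 0 to 2.32 TPM with a median of 0.27 and was above TPM 1 in 1 cell (7.69%, 0.195% to 36%). Of the cells of number 2, 8 were above TPM 10, 5 lay between 1.27 and 8.00 TPM, and cell 2-2 was at 0. No cell of number 3 was above TPM 10, but its highest value lay above 3 of the 5 low cells of number 2. Number 1 lay close to number 3, with 2 of 11 cells above TPM 1 (18.2%, 2.28% to 51.8%), a median of 0 and a highest value of 414 TPM. Number 4 was mixed, with 5 of 12 cells (41.7%, 15.2% to 72.3%), a median of 0.68 TPM and the highest value of all cells. The values of all 4 numbers overlapped.

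The range of the 4 Coro1a shares was 85.2 percentage points. A range at least that wide was found in 0.0170% of the 5892 genes above TPM 1 in 10 to 40 cells, which was Coro1a alone. The next widest was Ahr with 75 points, and the median gene had 26.3 points. Coro1a was chosen for this pattern, so its place is a description. With every value above 0 counted, the range was 47.4 points, and no share over genes was counted at that level. Counted at TPM above 10, the range of Coro1a was 57.1 points, and 1.00% of the 5592 genes in the same band at that level had a range at least as wide. The first title number carried 30.1% of the variance of log2(TPM + 1) of Coro1a against a median of 4.91% over the genes, and 7 genes had a higher share than Coro1a. Without the cells of number 2 the range fell to 34 points and Coro1a was above TPM 1 in 22.2% of cells. The first number coincides with whatever separated the 4 sets of cells, and culture, sort and library cannot be told apart.

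The median number of genes per cell differed little between the 4 sets, at 6243, 6233, 6235 and 6086 genes for numbers 1 to 4. The lowest cell of each set differed more, at 4402, 4326, 5636 and 2400 genes. Bola2, the neighbour that overlaps Coro1a, had medians of 359, 322, 407 and 428 TPM. The other members had narrower ranges than Coro1a. Rac2 ranged over 18.9 points (8.33% to 27.3% of cells), or over 27.3 points without cell 4-6, the only Rac2 cell of number 4. Cd53 ranged over 6.41 points (16.7% to 23.1%) and Vav1 over 34 points, against the median gene's 26.3 points. Vav1 was above TPM 1 in 4 of 14 cells of number 2 and 5 of 12 cells of number 4, against 1 of 11 and 1 of 13 in numbers 1 and 3. Laptm5 was above TPM 1 in at least 91.7% of the cells of every number, with medians of 225, 136, 242 and 145 TPM for numbers 1 to 4. Lcp1 had medians of 217, 235, 198 and 134 TPM.

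**Figure D3:**
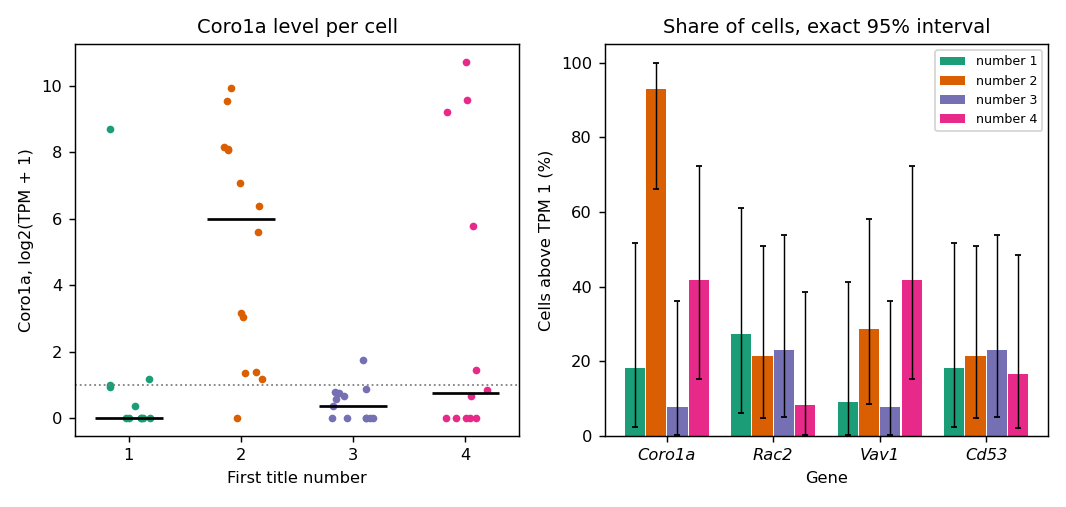
Left, Coro1a as log2(TPM + 1) per cell by first title number, with bars at the medians and a dotted line at TPM 1. Right, percent of cells above TPM 1 for the 4 less frequent genes by first title number, with exact 95% intervals, where Coro1a spans 7.69% to 92.9% and Cd53 only 16.7% to 23.1%.

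Each leukocyte gene has relatives that most cell types use, and 15 pairs were compared within cells. Lcp1 was higher than Pls3 (T-plastin, the form of non-blood cells) in 38/50 cells (76%, 61.8% to 86.9%), at medians of 199.5 and 98.7 TPM. The GDP-dissociation inhibitors that hold such GTPases inactive showed the same order, since Arhgdib, which is abundant in blood cells, was higher than the widely found Arhgdia in 39/50 cells (78%, 64.0% to 88.5%), at medians of 999.5 and 545 TPM. The lysosomal Laptm5 was under its relatives in most cells, with Laptm4a higher in 38 cells (76%) and Laptm4b in 31 cells (62%, 47.2% to 75.3%), at medians of 353 and 279 TPM.

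Rac2, Coro1a and Cd53 stayed under their widely expressed relatives in most cells, and the relatives of Vav1 and Ptprc were mixed. Rac1, the Rac protein of nearly all cells, had a median of 629 TPM and was higher than Rac2 in 49/50 cells (98%, 89.4% to 99.9%), the exception being cell 4-6. Rac2 made up 7.97% of the summed TPM of this pair over all cells and 4.06% without cell 4-6. The 2 genes are alike in coding sequence, but none of the 2998 stretches of 50 bases in Rac2 transcripts recurred in Rac1. Coro1b (median 240 TPM) and Coro1c (152 TPM) were higher than Coro1a in 43 and 41 cells. Coro1a was higher than Coro1b in 7 cells (14%, 5.82% to 26.7%). The tetraspanins Cd81, Cd63 and Cd9, at medians of 1617, 1249 and 817 TPM, were higher than Cd53 in all 50 cells. Of the Vav family, Vav3 was above TPM 1 in 38 cells at a median of 15.5 TPM and was higher than Vav1 in 33 cells, whereas Vav2 was above TPM 1 in 8 cells, with Vav1 the higher in 17 cells and Vav2 in 7. Of receptor phosphatases related to Ptprc, Ptpra was above TPM 1 in 40 cells at a median of 41.9 TPM and Ptpre in 41 cells at 18.1 TPM, while Ptprj, like Ptprc, was listed at 0 in all cells.

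**Figure D4:**
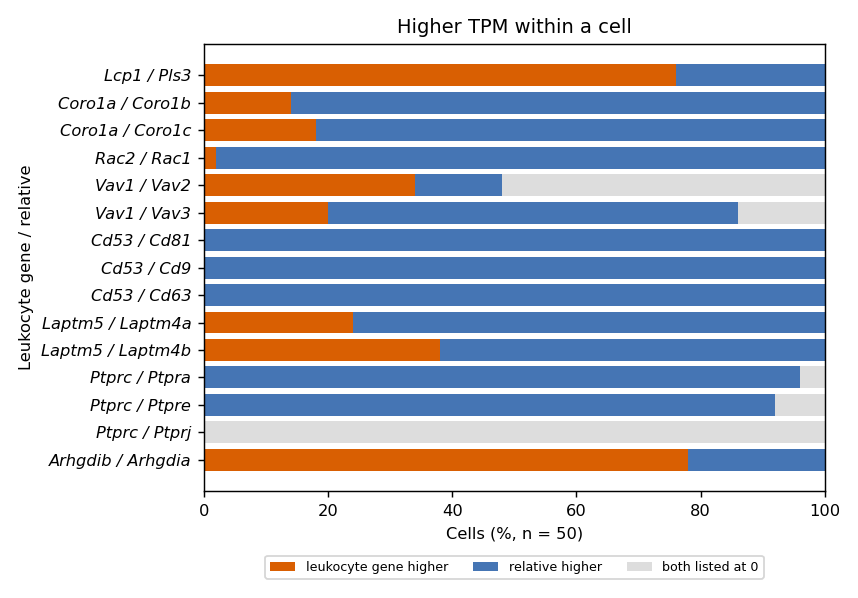
Percent of the 50 cells in which the leukocyte gene (orange) or its relative (blue) had the higher TPM, with grey where both were listed at 0, for 15 pairs. Lcp1 and Arhgdib are higher in most cells, at 76% and 78%, while Rac2 is higher in 2% and Cd53 in 0%.

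A further 50 genes of leukocyte signalling, adhesion and cytoskeleton were read as a setting for the members. Each had a row. Their median share of cells was 24%, against 52% over all rows of the table, and 7 of the 50 genes were above TPM 1 in at least 45 cells (19% of all rows were). Those 7, in falling order, were Arhgdib, Cd47, Cyba, Gmfg, Vasp, Lyn and Lcp2, and several of them, such as Cd47 and Vasp, are made by many cell types. Plcg2 followed with 43 cells. At the other end, 11 genes were above TPM 1 in no cell, and 8 of these were listed at 0 throughout (16% of the list, against 4.34% of all rows), among them Cd48, Cd84, Cybb, Cytip, Fyb, Myo1f and Spn. Spn is CD43, a sialoprotein that appears early on blood cells.

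Sorted by role, a grouping made after the values were known, the surface and adhesion genes were least frequent. Their median share was 6% over 13 genes, of which 2 (Cd47 and Cd44) were above TPM 1 in at least 25 cells. The leukocyte integrin chains Itgb2 and Itgal were above TPM 1 in 3 and 2 cells, and Selplg, the selectin ligand, in 4. The 15 signalling genes had a median of 42%. Among them were the Src-family kinase Lyn in 48 cells at a median of 82.0 TPM, the adaptor Lcp2 (SLP-76) in 46 cells at 88.9 TPM, the lipid phosphatase Inpp5d (SHIP1) in 42 cells and the phosphatase Ptpn6 (SHP-1) in 31 cells. Fgr, a further Src-family kinase, was above TPM 1 in 1 cell. The 17 genes of the cytoskeleton and of small GTPases had a median of 30%. Fermt3, an integrin activator, was above TPM 1 in 38 cells, Was in 28, and Dock8 in 28, whereas Dock2, an exchange factor for Rac proteins in leukocytes, was above TPM 1 in 1 cell.

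Genes that work with Rac2 and Vav1 were unevenly present. Of the NADPH oxidase, which Rac2 activates in phagocytes, Cyba was above TPM 1 in 50 cells at a median of 394 TPM, Ncf4 in 3 and Cybb in 0. All 11 Vav1 cells also had Lcp2, the adaptor that binds Vav1, and all 11 had Lyn, but these genes were found in 46 and 48 of the 50 cells in any case. Was, the actin regulator, shared 7 of its 28 cells with Rac2 and 4 with Vav1, or 25% and 14.3%. Over all cells, Rac2 was above TPM 1 in 20% and Vav1 in 22%. Ptpn6 shared 8 of its 31 cells with Rac2 and 5 with Vav1, and Dock8 shared 6 and 7 of its 28.

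**Figure D5:**
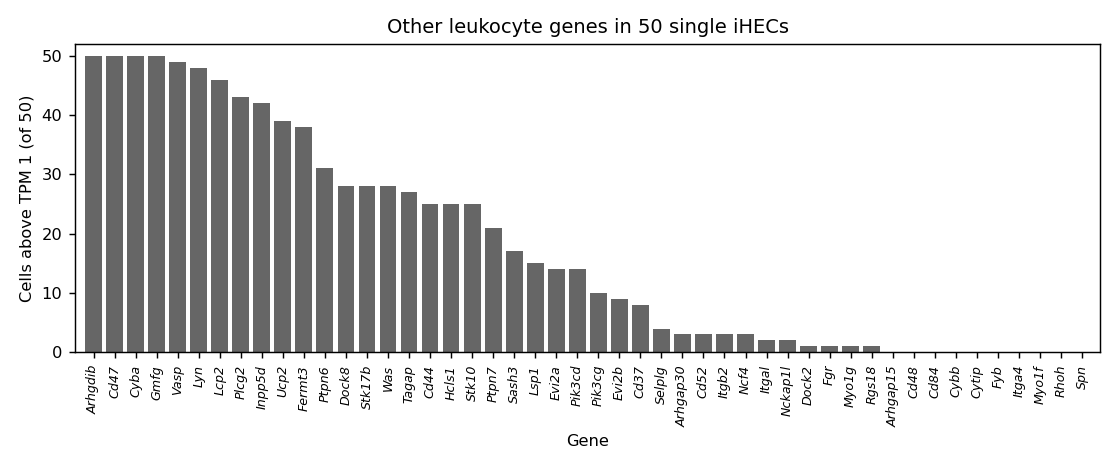
Number of the 50 cells with TPM above 1 for each of 48 other leukocyte genes, in falling order. Arhgdib, Cd47, Cyba and Gmfg reach 50 cells, and 10 genes from Arhgap15 to Spn are at 0 cells.

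Markers of mature blood cells were read in the same cells. Of 11 macrophage and monocyte markers with a row, 6 were listed at 0 in every cell (C1qa, C1qb, C1qc, Emr1, Mpeg1 and Fcgr1), none was above TPM 1 in at least 25 cells, and Csf1r was above TPM 1 in 3. Cd68, a lysosomal protein abundant in macrophages, was above TPM 1 in 22 cells, and Lyz2, a lysozyme of myeloid cells, in 15 cells at up to 988 TPM. Their summed level had a median of 5.04 TPM and a rho of 0.05 with the mean log2(TPM + 1) of the 6 members. Of 5 granulocyte and 5 lymphocyte markers with a row, none reached 25 cells. Of the lymphocyte markers, Ebf1 was above TPM 1 in 20 cells, Cd79b in 18 at up to 377 TPM, and Lck in 16. The granulocyte sum had a median of 0 and a highest value of 1558 TPM, carried by Prtn3, and the lymphocyte sum a median of 32.1 TPM. Gata1 was listed at 0 in all cells. Of 6 megakaryocyte markers with a row, Itga2b (CD41, part of the sort) and Itgb3 were above TPM 1 in 40 and 46 cells, and the sum of the 6 had a rho of 0.29 with the members. The erythroid sum had a median of 0 and a rho of 0.21. The part of these markers in the members' levels was not tested. In contrast, the 8 endothelial markers had a summed median of 2979 TPM, and their sum had a rho of 0.10 with the members. By first title number, the median macrophage sum was 5.22, 4.04, 0.50 and 7.56 TPM, and the endothelial sum 2698, 3228, 3248 and 2973 TPM. The lymphocyte sum had medians of 49.4, 20.97, 111 and 45.6 TPM, lowest in number 2 and highest in number 3, and the megakaryocyte sum 162, 148, 171 and 78.4 TPM. Of the mast cell list, Cpa3 was above TPM 1 in 0 cells, so its medians of 39.4, 54.0, 35.6 and 31.1 TPM, highest in number 2, are in effect those of Kit, a gene of the sort.

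Among factors of early blood formation, Spi1 (listed as Sfpi1) had a rho of 0.35 with the mean of the 6 members and shared 13 of its 24 cells with Coro1a (rho 0.27), 8 with Vav1 (0.34), 6 with Rac2 (0.12) and 5 with Cd53 (-0.01). Tyrobp, a myeloid adaptor, had a rho of 0.41 with that mean and shared 9 of its 27 cells with Rac2, which were 9 of the 10 Rac2 cells, and 9 with Vav1. It shared 10 with Coro1a (rho 0.02) and 4 with Cd53 (rho -0.13). Fcer1g, an adaptor related in function to Tyrobp, was above TPM 1 in 41 cells and had a rho of -0.01, and Gfi1, a repressor downstream of Runx1, had a rho of 0.06. Runx1, the induced factor, had a rho of 0.17. Runx1 was above TPM 1 in 20 of the 21 Coro1a cells and in 43 cells in all. Myb was listed at 0 in every cell, and Gfi1b was above TPM 1 in 1. Over 9098 genes above TPM 1 in at least 10 cells, the median rho with the mean of the members was 0.00 and the 95th percentile was 0.25.

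The genes whose levels were most like those of Coro1a over the 50 cells, by Spearman rho, were Eef2 (0.55), Cnr2 (0.52), Rpl13a (0.51), Wsb1 (0.50) and Grina (0.49). Eef2 and Rpl13a serve protein synthesis in all cells. On ranks centred within the first title number, these values were 0.44, 0.49, 0.50, 0.37 and 0.56. Of the 5 genes, 2 were again among the top 5 after that centring, and 3 were given the number of genes per cell. For the mean of the 6 members, the leading genes were Prnp (0.59), Rock1 (0.51), Trf (0.49), Tsnax (0.49) and Ptpre (0.49). Ptpre is the phosphatase related to Ptprc described above, and Prnp encodes the prion protein of the cell surface. These were the highest values of 9103 and 9098 genes, and are descriptions of 50 cells.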

How the data were processed

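Single-cell RNA-seq of 50 iRunx1-iHECs was used, 1 group of cells. Whole-transcriptome amplification was done cell by cell, with no molecular identifiers stated. Per the labels and the study's methods, the authors aligned reads to mm10 with HISAT2 2.1.0 and estimated the deposited TPM with StringTie 1.3.4. SAMtools 0.1.19 is also named in the submitters' processing notes. TPM keeps no depth, and how the 11879 rows were chosen is not given in the sources used here. Columns summed to between 942975 and 970894 TPM.

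From these values, cells above TPM 1 were counted, with exact Clopper-Pearson 95% intervals and, for a count of 0, the limit of 3 counts. Means were taken on log2(TPM + 1). Spearman's rho over cells, without p, described likeness of pattern over genes above TPM 1 in at least 10 cells. The functions were tested on simulated data. Gene positions came from GENCODE M21 (GRCm38, the assembly of mm10), promoter windows from RefSeq GRCm38.p6. The members, the gene lists and the title number comparison were chosen with earlier results of these data known. The roles, the motifs, the partner genes, cell 4-6 and Bola2 were chosen after the values were seen. The genes named were the 7 members, their relatives, the 8 most frequent other leukocyte genes and those at 0, the 5 most like Coro1a or the members, and set blood and endothelial genes. Further genes named by role were chosen after their values were seen, and 2 genes of the leukocyte list enter its counts but are not reported by name here. As alternatives, the level was set to TPM 0, 5 or 10, the pseudocount to 0.1, the cells of each first title number or those under 5000 genes were left out, and values were rescaled without 81 ribosomal protein rows. No cell was left out and no doublet caller was run. No significance test was made, since cells are not replicates. Python 3.11.15, pandas 2.3.3 and scipy 1.17.1 were used.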

Additional observations from a re-analysis of the deposited data

How the results depend on the processing

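Shares were taken as kept where they stayed within their exact 95% interval. Medians over genes or pairs have no such interval, and theirs was computed as if the median were a share of 50 cells. That interval does not measure their spread. The range of Coro1a shares was taken as kept where it moved by less than the SD of the 4 shares (37.9 points). This SD grows with the range itself, so the rule is a loose one. With every value above 0 counted, the median share over the 6 members rose from 32% to 57%. Cells with at least 3 members rose from 70% to 92% and cells with Coro1a from 42% to 64%. The range of Coro1a shares fell from 85.2 to 47.4 points at that level, and was kept only because that SD is wide. At TPM above 5, cells with at least 3 members fell to 54%. At TPM above 10 they were 52%, Coro1a was in 26% of cells and the other leukocyte genes had a median of 10%. These levels count more or fewer values by construction. Leaving out first title number 2 gave Coro1a in 22.2% of cells and a range of 34 points. For this the cause was not tested. Of the 5 genes most like Coro1a, 3 were kept given the number of genes per cell and 2 on ranks centred within the first title number. Of those most like the members, 3 were kept by that centring. All 8 main results were kept by these rules without first title number 1, 3 or 4 or without the 7 cells under 5000 genes. The same held without cell 4-6 (chosen after seeing the data) and on rescaling without ribosomal protein rows. Among the 7 single genes, a level of TPM above 0 moved 5 shares, Rac2 the most, to 50% of cells. Leaving out cell 4-6, its title number or the cells under 5000 genes took Lcp1 to 100% of cells. A pseudocount of 0.1 moved the mean level of Vav1 by more than the SD over cells, from 1.06 to -1.35 on the log2 scale, and no other member's. No paired analysis was possible because the cells form a single group. With unknown depth, a gene at 0 cannot be told from one below detection.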
